A study of Mus musculus with 6 samples.

Results

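The 10 genes described here belong to the Hippo pathway and to the transcriptional programme it controls. They are the coactivators Yap1 and Wwtr1 (the gene of TAZ), the transcription factors Tead1, Tead3 and Tead4, the kinases Lats1 and Lats2, and the target genes Ankrd1, Ccn1 and Ccn2. They were taken by name and are 10 of the 49315 genes in the count table, where Ccn1 and Ccn2 carry the older symbols Cyr61 and Ctgf. RNA sequencing was done on bEND.3 cells, an immortalized endothelial line from mouse brain, after transfection with Lipofectamine 2000. The GapmeR group (4 samples) received an LNA GapmeR against the long non-coding RNA Gm39822 at 100 nM. The Negative Control group (2 samples) received a control LNA GapmeR, also at 100 nM. An LNA GapmeR is an antisense oligonucleotide with locked nucleic acid ends and a DNA core that recruits RNase H. Each group rests on 1 oligonucleotide and on 1 cell line, so an effect of the sequence of the oligonucleotide and an effect of losing Gm39822 cannot be told apart.

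In the Hippo pathway, the kinases MST1 and MST2 activate LATS1 and LATS2, which phosphorylate YAP and TAZ. Phosphorylated YAP and TAZ are held in the cytoplasm or degraded. Otherwise they enter the nucleus, bind the TEAD factors, which carry the DNA-binding domain, and raise transcription of genes such as Ccn1, Ccn2 and Ankrd1. In endothelial cells the pathway responds to flow, cell contact and matrix stiffness and takes part in vessel growth. Much of this control acts on phosphorylation and location of the proteins, which RNA counts do not measure.

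GapmeR samples 1 to 4 held 33074972, 37117934, 30264086 and 31067184 counts in total, and Negative Control samples 1 and 2 held 29261988 and 34266811. Levels are given as CPM, counts scaled to a common library size with TMM factors, and differences as log2 fold changes of GapmeR over Negative Control. A gene was called changed at an adjusted p-value under 0.05 from the quasi-likelihood test of edgeR, with Benjamini-Hochberg adjustment over the 18234 genes that had at least 5 counts in at least 2 samples. No source says that samples of a group came from separate cultures, so the p-values measure the spread between these samples, which may be technical. For a single gene, the exact two-sided permutation test has 15 ways to split 4 samples from 2, and it gives no p-value below 0.0667.

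The targeted RNA was low in every GapmeR sample. Gm39822 (ENSMUSG00000110618, mm10 chromosome 11, 51897312 to 51909624) reached 2, 1, 4 and 2 counts after knockdown, against 61 and 56 in the controls. Its log2 fold change was -4.82 (SE 0.41, adjusted p = 8.8e-08). No GapmeR sample reached 5 counts, so Gm39822 was tested only because of its counts in the controls, and it was not tested without either control. All 10 endothelial markers passed the filter on low counts, which does not establish the identity of the cells, since all 8 macrophage markers passed it too. Of the 10 endothelial markers, 6 were called lower and 1 higher, against 20.0% and 25.4% of all genes tested. The most abundant, Cdh5, which encodes VE-cadherin, stood at 1733 ± 175 CPM (SD, n = 4) in the GapmeR samples and 2463 ± 112 CPM (SD, n = 2) in the controls.

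All 10 genes passed the filter on low counts, and 5 of them were called, every one lower in the GapmeR samples. These were Wwtr1, Tead1, Tead4, Lats2 and Ccn2. Of all 18234 genes tested, 45.3% were called, 25.4% as higher and 20.0% as lower, so the share of the 10 genes called in either direction (50%) was near that of all genes, and the share called lower (50%) was above it. Scaling by library size alone turned the split of all genes from 4625 higher and 3643 lower to 6106 higher and 2135 lower, and moved the median log2 fold change of all genes by 0.15. The median log2 fold change was -0.30 over the 10 genes and 0.03 over all genes tested. The Wald test of DESeq2 called 41.1% of genes and the same 5 of the 10. In a bulk sample, fewer cells of a type and less RNA per cell cannot be told apart.

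**Figure D1:**
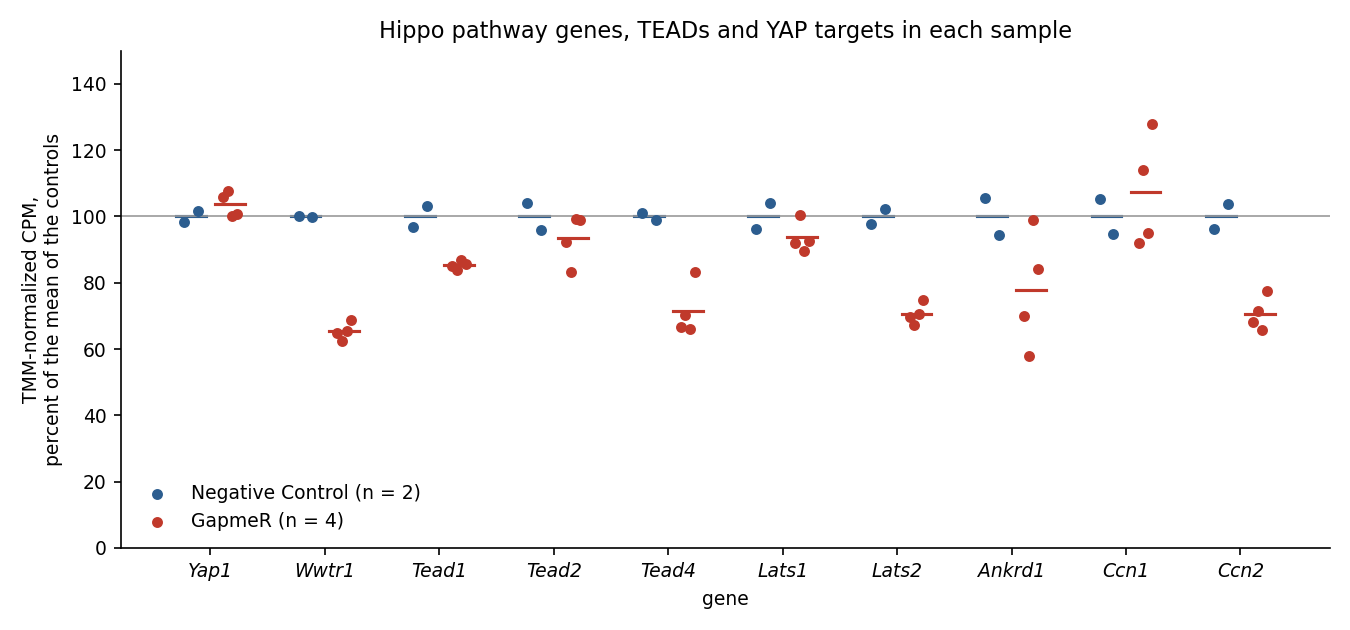
TMM-normalized CPM of each gene in each sample, as a percentage of the mean of the 2 Negative Control samples (y axis, linear). Points are samples (blue, Negative Control, n = 2; red, GapmeR, n = 4) and short lines are group means; Tead3, at 3 counts in the controls together, is left out and Tead2 is added. The GapmeR samples lie below both controls for Wwtr1, Tead1, Tead4, Lats2 and Ccn2, and spread widely for Ankrd1 and Ccn1.

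The coactivators YAP and TAZ are related proteins that bind the same TEAD factors, and their genes differed in response. Yap1 (ENSMUSG00000053110, mm10 chromosome 9, 7931999 to 8004638) stood at 136, 138, 129 and 129 CPM in GapmeR samples 1 to 4 and at 126 and 130 CPM in the controls. The values of the groups overlapped, and the log2 fold change was 0.05 (SE 0.07, adjusted p = 0.574). Scaled by library size alone, Yap1 was called higher, with a log2 fold change of 0.20 (adjusted p = 0.0278). Wwtr1 (ENSMUSG00000027803, chromosome 3, 57455644 to 57575910) stood at 186, 180, 188 and 197 CPM in the GapmeR samples and at 288 and 287 CPM in the controls. Every GapmeR sample was below both controls, a lack of overlap between the groups that 59.2% of all genes tested showed (31.9% higher and 27.3% lower). Wwtr1 fell to 65.3% of the control mean, or 188 ± 7.29 CPM (SD, n = 4) against 287 ± 0.535 CPM (SD, n = 2). Its log2 fold change was -0.61 (SE 0.07, adjusted p = 2.4e-06). The exact permutation test gave p = 0.0667, the smallest it can give.

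The ratio of the counts of a pair of genes within a sample does not depend on how samples are scaled. Wwtr1 had 1.37, 1.30, 1.46 and 1.53 counts for each count of Yap1 in the GapmeR samples, against 2.28 and 2.20 in the controls. The log2 ratio was 0.67 lower in the GapmeR samples (exact two-sided permutation test, p = 0.0667, or 0.111 after adjustment over 5 pairs). Leaving out any 1 sample kept this difference between -0.70 and -0.63. The test cannot pass 0.05 with these samples, and a ratio does not show which of the genes changed.

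TEAD1 to TEAD4 share a DNA-binding domain and differ in where they are expressed. Tead1 (ENSMUSG00000055320, chromosome 7, 112679356 to 112906784) stood at 39.3, 38.6, 40.0 and 39.4 CPM in the GapmeR samples and at 44.6 and 47.5 CPM in the controls. All GapmeR samples lay below the controls, at 85.4% of the control mean, and the log2 fold change was -0.23 (SE 0.07, adjusted p = 0.0157). Tead1 was not called without control 1, at -0.26 (adjusted p = 0.0578), or without control 2, at -0.16 (adjusted p = 0.242). In every such fit the remaining control stands alone and is assumed to vary like the GapmeR samples, so a call can be lost there without a smaller difference. Without control 2 the difference in Tead1 was itself smaller. The Tead1 call was also lost on library size alone, at -0.08 (adjusted p = 0.377).

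Tead4 (ENSMUSG00000030353, chromosome 6, 128227143 to 128300813) stood at 29.5, 31.1, 29.2 and 36.9 CPM in the GapmeR samples and at 44.8 and 43.8 CPM in the controls. GapmeR sample 4 was the highest of its group and still below both controls. Tead4 fell to 71.5% of the control mean, with a log2 fold change of -0.48 (SE 0.09, adjusted p = 0.00044). Tead4 had 0.751, 0.806, 0.730 and 0.936 counts for each count of Tead1 in the GapmeR samples, against 1.00 and 0.922 in the controls, and these values overlapped. The log2 ratio of Tead4 to Tead1 differed by -0.26 (exact permutation p = 0.20, where the smallest possible is 0.0667).

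Tead3 (ENSMUSG00000002249, chromosome 17, 28331671 to 28350805) was barely detected, at 2, 12, 4 and 11 counts in the GapmeR samples against 2 and 1 in the controls. A count of 3 corresponds to 0.0771 to 0.110 CPM at these depths. The pooled counts of 29 and 3 give a ratio of 4.21, with a 95% interval from 1.31 to 21.6 that covers counting error only. GapmeR samples 2 and 4 were high, GapmeR sample 1 was level with a control, and the gene was not called (log2 fold change 1.98, SE 0.90, adjusted p = 0.0845). Without GapmeR sample 1 it was called (2.29, adjusted p = 0.0348), and without GapmeR sample 3 it was not (2.16, adjusted p = 0.0566). With a single control left, the log2 fold change was 2.63 without control 1 and 1.51 without control 2. Tead3 passed the filter on low counts only through GapmeR samples 2 and 4, and without either of them it was not tested. The call thus rests on the counts that let the gene be tested, and no conclusion is drawn from it. Tead2, the remaining TEAD gene, stood at 45.1 ± 3.58 CPM (SD, n = 4) in the GapmeR samples and 48.2 ± 2.74 CPM (SD, n = 2) in the controls. It was not called (log2 fold change -0.10, SE 0.08, adjusted p = 0.36), and on library size alone its direction turned to 0.05.

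**Figure D2:**
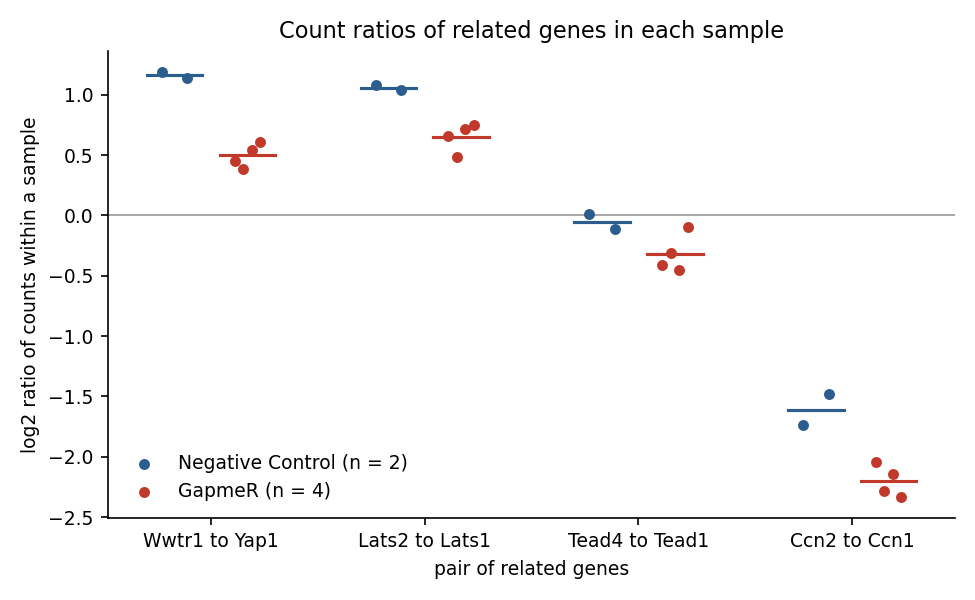
Log2 of the ratio of counts of 2 related genes in each sample (y axis) for pairs of coactivators, TEADs, kinases and CCN genes. Points are samples (blue, Negative Control, n = 2; red, GapmeR, n = 4) and short lines are group means. The groups do not overlap for Wwtr1 to Yap1, Lats2 to Lats1 and Ccn2 to Ccn1, and they overlap for Tead4 to Tead1.

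LATS1 and LATS2 are the kinases that phosphorylate YAP and TAZ, and Lats2 is itself a target gene of YAP. Lats1 (ENSMUSG00000040021, chromosome 10, 7681200 to 7716461) stood at 55.8, 60.7, 54.2 and 56.1 CPM in the GapmeR samples and at 58.2 and 62.9 CPM in the controls. The groups overlapped through GapmeR sample 2, and Lats1 was not called (log2 fold change -0.09, SE 0.07, adjusted p = 0.314; 0.05 on library size alone). Lats2 (ENSMUSG00000021959, chromosome 14, 57689662 to 57746212) stood at 87.9, 84.7, 89.0 and 94.4 CPM in the GapmeR samples and at 123 and 129 CPM in the controls. All GapmeR samples lay well below both controls, and Lats2 fell to 70.7% of the control mean (log2 fold change -0.50, SE 0.07, adjusted p = 2.4e-05). Lats2 had 1.58, 1.40, 1.64 and 1.68 counts for each count of Lats1 in the GapmeR samples, against 2.12 and 2.05 in the controls. The log2 ratio was 0.41 lower (exact permutation p = 0.0667, or 0.111 adjusted over 5 pairs). In the GRCm39 annotation, 28.2% of the exonic bases of Lats2 are shared with a predicted gene on the same strand, Gm49361, which has no row in the count table.

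Of the 3 target genes, Ccn2 was called lower and Ccn1 and Ankrd1 were not called. CCN1 and CCN2 are secreted matricellular proteins that bind integrins, and ANKRD1 is an ankyrin-repeat protein of the nucleus and the sarcomere. Ccn2 (ENSMUSG00000019997, chromosome 10, 24595442 to 24598683) stood at 66.5, 69.7, 64.3 and 75.8 CPM in the GapmeR samples and at 94.1 and 101 CPM in the controls. All GapmeR samples were below both controls, and Ccn2 fell to 70.7% of the control mean (log2 fold change -0.50, SE 0.08, adjusted p = 6.7e-05).

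Ccn1 (ENSMUSG00000028195, chromosome 3, 145646971 to 145649985) stood at 275, 340, 284 and 382 CPM in the GapmeR samples and at 314 and 283 CPM in the controls. GapmeR samples 2 and 4 were above both controls and GapmeR sample 1 was below both. The mean was 320 ± 50.3 CPM (SD, n = 4) against 298 ± 21.7 CPM (SD, n = 2), and the gene was not called (log2 fold change 0.10, SE 0.12, adjusted p = 0.534). Its coefficient of variation over the GapmeR samples was 15.7%. Ccn2 had 0.242, 0.205, 0.226 and 0.199 counts for each count of Ccn1 in the GapmeR samples, against 0.300 and 0.358 in the controls. The log2 ratio was 0.59 lower in the GapmeR samples (exact permutation p = 0.0667, or 0.111 adjusted over 5 pairs).

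Ankrd1 (ENSMUSG00000024803, chromosome 19, 36111965 to 36119844) was sparse, with 41, 39, 53 and 47 counts in the GapmeR samples, against 50 and 52 in the controls. It stood at 1.21, 1.00, 1.71 and 1.45 CPM in the GapmeR samples and at 1.83 and 1.63 CPM in the controls. GapmeR sample 3 lay between the controls and the other GapmeR samples lay below them. The gene was not called (log2 fold change -0.37, SE 0.25, adjusted p = 0.255). The ratio of the pooled counts was 0.769, with a 95% counting interval from 0.60 to 0.99.

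Exons of the 3 target genes overlap long non-coding RNAs on the opposite strand in the GRCm39 annotation, over 36.5% of exonic bases for Ccn2 (Gm15270), 23.0% for Ccn1 (Gm17501) and 24.3% for Ankrd1 (Gm56671, with no row in the count table). The strand setting of the counting is not given in the sources used here, so reads of such a pair cannot be told apart. Gm15270 had 67, 71, 65 and 50 counts in the GapmeR samples, against 56 and 74 in the controls, against 1993 to 3233 counts of Ccn2 over all samples.

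TEAD factors bind DNA at the short motif GGAATG, and promoter sequences are shown for the 2 target genes with a listed promoter and for Wwtr1, the coactivator gene that fell. RefSeq promoters on GRCm38.p6, the build of the files, were listed for 7 of the 10 genes. Tead1, Tead4 and Ccn2 were not among them. Each sequence is the 250 bases before a start site, printed 5′ to 3′ on the strand of the gene, which is the minus strand for all 3. Capitals mark GGAATG or its reverse complement CATTCC. The windows are chr3:145649986-145650235 for Ccn1, chr19:36119845-36120094 for Ankrd1 and chr3:57575911-57576160 for Wwtr1.
Ccn1: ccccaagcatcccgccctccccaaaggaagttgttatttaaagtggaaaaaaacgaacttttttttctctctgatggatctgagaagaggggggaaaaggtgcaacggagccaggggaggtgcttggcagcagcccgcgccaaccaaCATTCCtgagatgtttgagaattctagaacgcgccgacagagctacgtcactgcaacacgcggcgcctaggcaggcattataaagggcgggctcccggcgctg
Ankrd1: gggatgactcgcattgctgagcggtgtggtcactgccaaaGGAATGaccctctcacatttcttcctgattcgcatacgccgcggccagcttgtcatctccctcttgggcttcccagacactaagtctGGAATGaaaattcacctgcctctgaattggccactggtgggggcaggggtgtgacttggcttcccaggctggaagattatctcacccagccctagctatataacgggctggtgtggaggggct
Wwtr1: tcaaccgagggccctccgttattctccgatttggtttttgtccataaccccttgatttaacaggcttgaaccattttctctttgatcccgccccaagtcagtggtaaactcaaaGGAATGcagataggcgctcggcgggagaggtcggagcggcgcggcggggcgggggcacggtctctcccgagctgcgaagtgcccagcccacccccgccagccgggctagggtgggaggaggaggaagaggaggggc

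The match in Ccn1 ends 98 bases before the start site and reads on the opposite strand. The matches in Ankrd1 begin 210 and 123 bases before the start, and the match in Wwtr1 begins 136 bases before it. On either strand, GGAATG stood in the 250 bases before a start of 5 of the 7 genes (Yap1, Wwtr1, Tead3, Ankrd1 and Ccn1, and not Lats1 or Lats2), against 14.4% of the 27025 genes with a listed promoter. The AP-1 motif TGANTCA (N is any base) and the CArG box, the site of the serum response factor, were in none of the 7, against 7.82% and 1.62% of all genes. Of these genes with the TEAD motif, Wwtr1 was lower while Yap1, Ankrd1, Ccn1 and Tead3 were not called. Among the 12120 tested genes with a listed promoter, 26.4% of the 1566 with the motif were called higher and 23.7% lower. Of the 10554 without it, 25.8% were called higher and 22.2% lower. A match to these letters is not a measured binding site.

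Levels divided by exonic length give a rough comparison between genes. The length is the union of all annotated exons, not that of the transcripts present in these cells, and the overlaps with other genes described above also limit it. In the controls, Ccn1 was the highest, at 147 ± 10.7 CPM per kilobase (SD, n = 2), followed by Ccn2 at 30.7 ± 1.60, Wwtr1 at 24.3 ± 0.0452, Yap1 at 13.7 ± 0.300 and Lats2 at 12.0 ± 0.392. Tead2 (8.83 ± 0.502) and Tead4 (7.31 ± 0.116) were the highest TEADs on this measure, above Lats1 (4.82 ± 0.268) and Tead1 (3.39 ± 0.152). Before the division, Tead2, Tead1 and Tead4 were at similar means in the controls, 48.2, 46.1 and 44.3 CPM, so their order rests on the annotated lengths. Ankrd1 (0.579 ± 0.0464) and Tead3 (0.00777 ± 0.00439) were last. The order of the means was the same in the GapmeR samples, where Wwtr1 stood at 15.9 ± 0.616 CPM per kilobase (SD, n = 4) beside Yap1 at 14.2 ± 0.501. The values of neighbours did not overlap in the controls. In the GapmeR samples they overlapped between Lats2 and Tead2 and between Tead4 and Lats1.

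**Figure D3:**
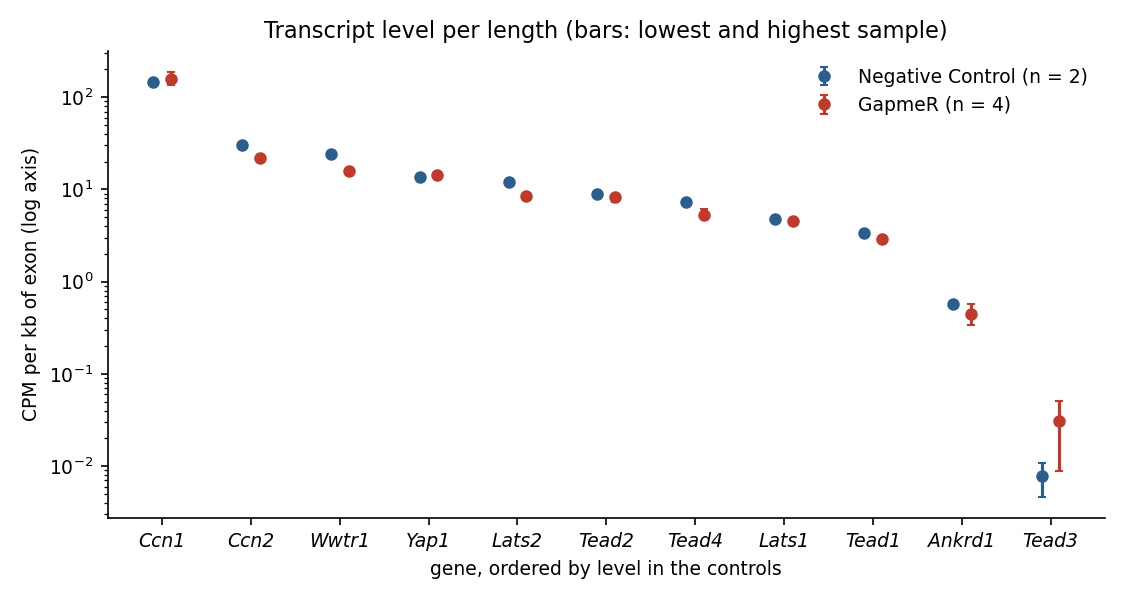
Level of each gene per kilobase of exon (y axis, log scale, TMM-normalized CPM per kilobase), ordered by the mean of the controls. Points are group means (blue, Negative Control, n = 2; red, GapmeR, n = 4) and bars run from the lowest to the highest sample. Ccn1 is the highest in both groups and Tead3 the lowest.

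The other genes of the pathway were taken from lists by role, and each count is read against the 25.4% of all genes that were called higher and the 20.0% that were called lower. The kinase core has MST1 and MST2 (Stk4 and Stk3), their partner SAV1 and the LATS partners MOB1A and MOB1B beside the LATS kinases. Of these 5 further genes, 1 was lower and none was higher. Stk4 stood at 25.8 ± 0.538 CPM (SD, n = 4) in the GapmeR samples and 30.9 ± 0.449 CPM (SD, n = 2) in the controls (log2 fold change -0.26, SE 0.08, adjusted p = 0.0105). With a single control, Stk4 kept a similar log2 fold change but was not called, without control 1 (-0.23) or control 2 (-0.25). On library size alone its log2 fold change was smaller and it was not called (-0.11, adjusted p = 0.248). Mob1a, which had the highest CPM of the 5, stood at 169 ± 12.4 and 193 ± 2.58 CPM and was not called (-0.19, adjusted p = 0.0536), but it was called without GapmeR sample 2 (-0.23, adjusted p = 0.0047) and without a filter on low counts (-0.20, adjusted p = 0.0438).

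Upstream regulators include the MAP4K and TAO kinases, which can phosphorylate LATS or MST kinases, the RASSF proteins, which bind MST kinases, and scaffolds of junctions and polarity. Of 31 such genes, 13 were higher, 6 were lower and 12 were not called, and their median log2 fold change was 0.25. The 6 that were lower are named after their values were seen. They were Wwc1 (log2 fold change -0.71), Amotl2 (-0.40), Dchs1 (-0.36), Limd1 (-0.30), Nf2 (-0.23) and Map4k4 (-0.19). Map4k2 stood at 39.7, 50.03, 40.3 and 51.3 CPM in the GapmeR samples and at 13.5 and 12.5 CPM in the controls, with no overlap. Its log2 fold change of 1.81 (SE 0.12, adjusted p = 2.6e-08) was the largest of the list. Rassf2 rose by 1.60 on the log2 scale (SE 0.13, adjusted p = 4.7e-08), from 4.04 ± 0.399 to 12.3 ± 0.770 CPM. Map4k1, a kinase mostly of blood cells, rose by 1.41 (SE 0.27, adjusted p = 0.00047) from 0.715 ± 0.125 to 1.90 ± 0.251 CPM. Rassf3 rose by 0.86 (SE 0.08, adjusted p = 2.7e-07). Taok2, which had the highest mean CPM of the list over all 6 samples, rose from 236 ± 16.2 to 289 ± 5.42 CPM (log2 fold change 0.29, SE 0.07, adjusted p = 0.0037), a call lost without control 1 (0.24, adjusted p = 0.0802).

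STRIPAK is a phosphatase complex that removes phosphate from the MST kinases and so counteracts them. Of its 13 tested genes, 1 was lower and none was higher, with a median log2 fold change of -0.04. Ppp2r1a, the scaffold subunit of the phosphatase PP2A, fell from 436 ± 4.69 to 325 ± 22.4 CPM (log2 fold change -0.42, SE 0.08, adjusted p = 0.00033). Ppp2ca, the catalytic subunit, had the highest mean CPM over all 6 samples and was not called, at 364 ± 49.4 and 375 ± 12.7 CPM (-0.04, adjusted p = 0.763), with a direction that turned on library size alone (0.11).

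Phosphorylated YAP and TAZ are held by adaptor proteins encoded by the Ywha genes and Sfn, and casein kinases and a ubiquitin ligase mark them for degradation. Of 11 genes in these roles, 1 was higher and 4 were lower. Sfn, also known as stratifin, had 1034, 867, 1028 and 810 counts in the GapmeR samples, against 45 and 64 in the controls. It rose from 1.82 ± 0.256 to 27.8 ± 4.96 CPM, a log2 fold change of 3.91 (SE 0.21, adjusted p = 2.1e-08). Among the Ywha adaptors, Ywhag fell from 950 ± 14.6 to 721 ± 36.6 CPM (-0.40, SE 0.08, adjusted p = 0.00046). The smaller falls of Ywhaq (-0.24, adjusted p = 0.0152) and of the casein kinase gene Csnk1d (-0.21, adjusted p = 0.0291) were not called with a single control, which is assumed to vary like the GapmeR samples. Without control 1, Ywhaq stood at -0.20 (adjusted p = 0.161) and Csnk1d at -0.25 (adjusted p = 0.0731). Without control 2 they stood at -0.24 (adjusted p = 0.105) and -0.13 (adjusted p = 0.389). Ywhaq also lost its call without GapmeR sample 3 (-0.19, adjusted p = 0.0710) and Csnk1d without GapmeR sample 4 (-0.20, adjusted p = 0.0629) or with at least 10 counts in every sample (-0.16, adjusted p = 0.0806), and library size alone ended both calls (-0.09, adjusted p = 0.351, and -0.06, adjusted p = 0.493). The remaining gene that was lower was Ywhab (-0.19, adjusted p = 0.0404), named here after its value was seen. Ywhae, which had the highest mean CPM over all 6 samples, was not called (-0.04, adjusted p = 0.682; 0.10 on library size alone).

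VGLL4 competes with YAP and TAZ for TEADs and represses their targets. Vgll4 stood at 66.7, 73.1, 69.0 and 74.5 CPM in the GapmeR samples and at 108 and 114 CPM in the controls. All GapmeR samples were below both controls, with a log2 fold change of -0.65 (SE 0.07, adjusted p = 2.0e-06). The other cofactor genes of the family, Vgll1, Vgll2 and Vgll3, did not pass the filter on low counts.

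Outside the 10 genes, the list of YAP and TAZ targets held 18 genes, of which 17 were tested, 2 were higher and 5 were lower. Their median log2 fold change was -0.14. Igfbp3, which encodes a secreted binding protein of insulin-like growth factors, stood at 506, 650, 507 and 711 CPM in the GapmeR samples and at 1427 and 1340 CPM in the controls. It had the largest fall of the list (-1.22, SE 0.13, adjusted p = 1.9e-05). Fjx1 (-0.86, adjusted p = 0.0147) and Arhgef17 (-0.77, adjusted p = 0.0214) were lower from control levels of 2.03 and 1.68 CPM. With a single control, which is assumed to vary like the GapmeR samples, the folds were similar and neither was called, without control 1 (Fjx1 -0.80, adjusted p = 0.101, Arhgef17 -0.79, adjusted p = 0.0925) or without control 2 (-0.88, adjusted p = 0.0841, and -0.72, adjusted p = 0.146). Arhgef17 also lost its call without GapmeR sample 1 (-0.71, adjusted p = 0.0518), by the Wald test of DESeq2 (-0.77, adjusted p = 0.0576) and on library size alone (-0.63, adjusted p = 0.0579). Gadd45a, a gene of the response to DNA damage and stress, rose from 52.7 ± 3.19 to 83.4 ± 10.2 CPM (0.66, SE 0.10, adjusted p = 0.000105). Amotl2 (-0.40), Crim1 (-0.24) and Ptpn14 (0.35) were also called, and are named after their values were seen. Myof, which had the highest mean CPM of the 17 over all 6 samples, was not called (0.16, adjusted p = 0.113), though it was without GapmeR sample 2 (0.20, adjusted p = 0.0106), on library size alone (0.31, adjusted p = 0.0032) and with at least 10 counts in every sample (0.21, adjusted p = 0.0429).

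**Figure D4:**
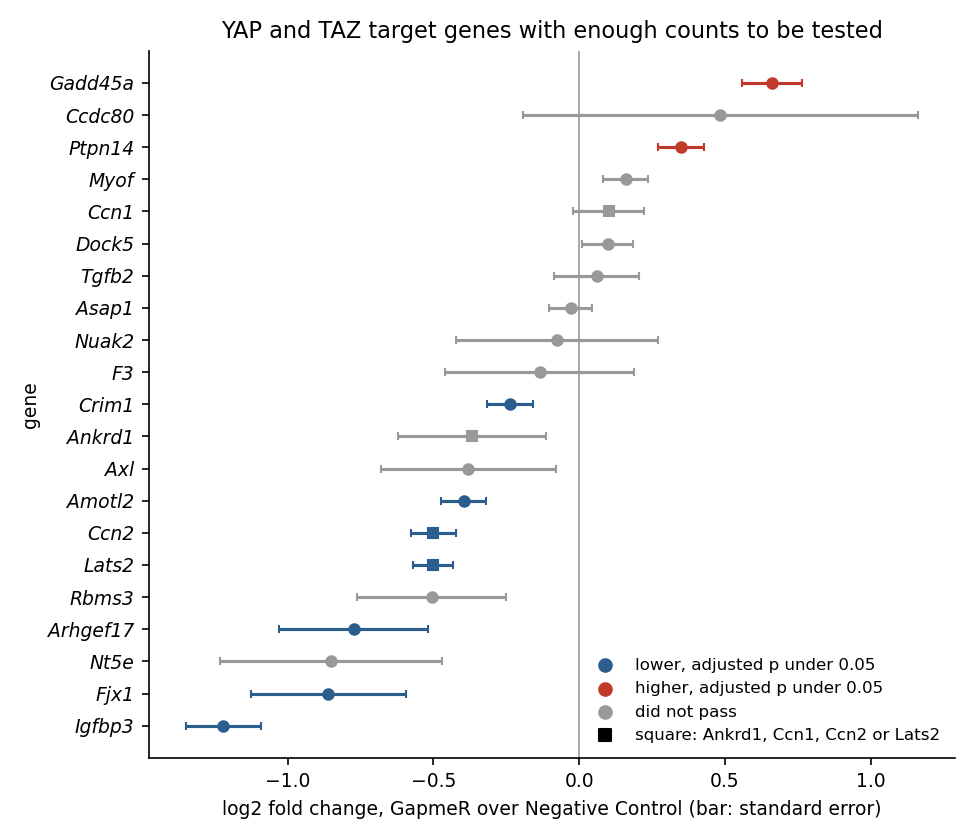
Log2 fold change, GapmeR over Negative Control (x axis), of each tested gene of the list of YAP and TAZ targets, with its standard error. Squares are Ankrd1, Ccn1, Ccn2 and Lats2, circles are the other targets, and colour marks the direction of genes with an adjusted p-value under 0.05. Igfbp3 is the lowest and Gadd45a the highest of the called genes.

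Of the remaining CCN genes, Ccn4 (listed as Wisp1) rose from 0.765 ± 0.106 to 1.48 ± 0.166 CPM (log2 fold change 0.95, SE 0.27, adjusted p = 0.0092). Without control 2, with a single control left, the call was lost at a similar log2 fold change (0.83). Ccn3 (listed as Nov) was not called, at 16.3 ± 1.07 and 15.5 ± 1.05 CPM (0.07, adjusted p = 0.582). Serum response factor and its cofactors, the MRTFs, respond to actin and share targets with YAP. Of 15 tested genes of that list, 3 were higher and 4 were lower. Tagln (1.96, SE 0.35, adjusted p = 0.00024) and Acta1 (1.39, SE 0.24, adjusted p = 0.0002) rose from 0.522 and 0.994 CPM. Tagln had 8 and 24 counts in the controls, and without control 2 its log2 fold change was 2.84 (adjusted p = 0.00051). Mrtfa (listed as Mkl1) rose by 0.49 (SE 0.12, adjusted p = 0.0030). Srf itself fell from 102 ± 6.34 to 82.1 ± 2.75 CPM (-0.31, SE 0.07, adjusted p = 0.0021), a call lost without control 2 (-0.22, adjusted p = 0.101) and on library size alone (-0.16, adjusted p = 0.0734). Myh9, a non-muscle myosin with the highest mean CPM of the list, was not called (-0.12, adjusted p = 0.344; 0.03 on library size alone).

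**Figure D5:**
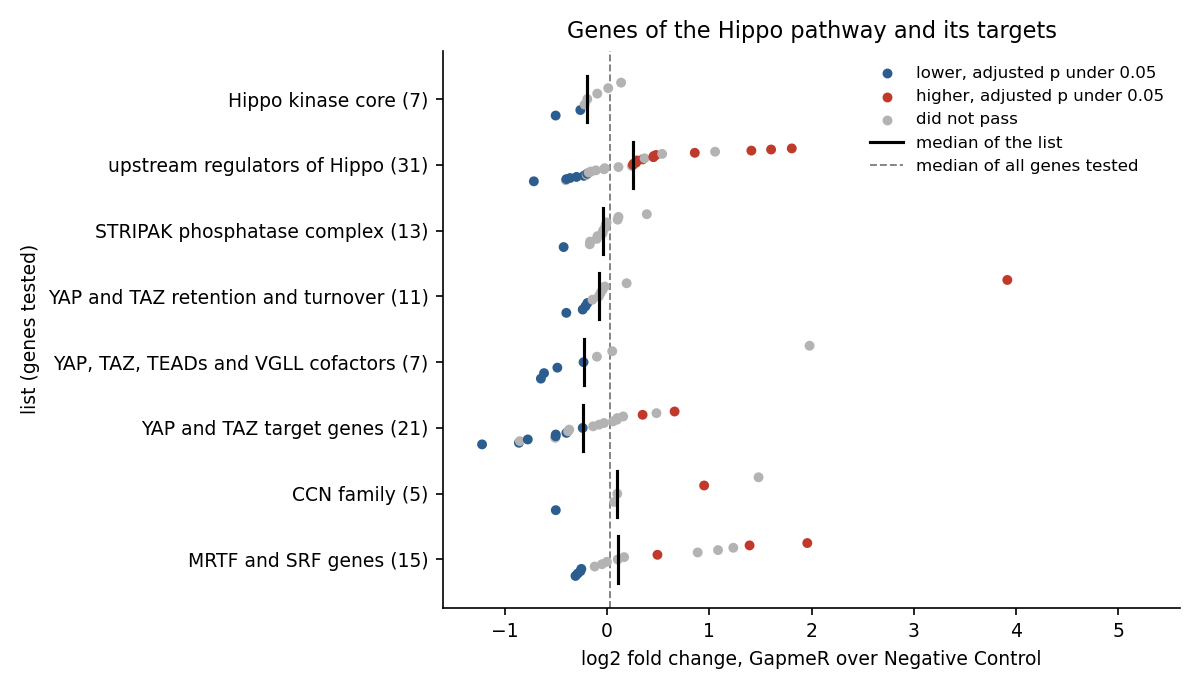
Log2 fold change, GapmeR over Negative Control (x axis), of every tested gene in 8 lists (y axis, number tested in brackets). Each point is a gene, coloured by direction where its adjusted p-value is under 0.05; black bars are list medians and the dashed line is the median of all genes tested. Most called upstream regulators lie to the right, and the point farthest to the right is Sfn.

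Markers of other cells are given by list, and their part in the results above was not tested. Each count of called markers is read against the 25.4% of all genes called higher and the 20.0% called lower. Of 8 macrophage markers, all were tested, none was at 0 and 2 were higher, a share (25%) near that of all genes. Their median log2 fold change was 1.07, against 0.03 over all genes tested. The Wald test of DESeq2 also called Ptprc (adjusted p = 0.0099) and Itgam (adjusted p = 0.0449), named after their values were seen. The 8 markers summed to 224, 205, 344 and 379 CPM in the GapmeR samples and 173 and 168 CPM in the controls, with GapmeR samples 3 and 4 the highest. Lyz2, which had the highest mean CPM over all 6 samples, stood at 79.1, 73.5, 168 and 206 CPM in the GapmeR samples, against 68.8 and 62.1 CPM. It was not called (1.00, adjusted p = 0.237), but it was by limma-voom on all 6 samples (0.86, adjusted p = 0.0473) and without GapmeR samples 3 and 4 (0.24, adjusted p = 0.0350). Cd68, named after its values were seen, lay above Lyz2 in both controls and in GapmeR samples 1 and 2. Cd68 was even over the GapmeR samples, at 123, 113, 125 and 116 CPM, against 87.2 and 89.5 CPM (log2 fold change 0.43, SE 0.07, adjusted p = 0.00015). The other marker called higher, also named after its values were seen, was Fcer1g, at 3.16 ± 0.932 against 0.827 ± 0.0176 CPM (1.92, SE 0.30, adjusted p = 8.0e-05). Without both GapmeR samples 3 and 4, a choice made after seeing the data, the log2 fold changes were -0.63 for Wwtr1, -0.53 for Tead4, -0.52 for Lats2 and -0.50 for Ccn2, all still called. Tead1 was not (-0.22, adjusted p = 0.0597), so 4 of the 10 genes were called. Stk4, Ywhaq and Csnk1d lost their calls as well (adjusted p = 0.0527, 0.20 and 0.0961).

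Of 10 endothelial markers, 6 (60%) were lower and 1 (10%) was higher, against 20.0% and 25.4% of all genes tested. The 10 markers summed to 7037, 6217, 7057 and 7024 CPM in the GapmeR samples and 8230 and 8000 CPM in the controls. The marker that was higher was Erg, an endothelial transcription factor gene named after its values were seen, at 289 ± 10.5 against 133 ± 2.47 CPM (1.12, SE 0.07, adjusted p = 4.9e-09). Cdh5 had a log2 fold change of -0.51 (SE 0.09, adjusted p = 0.00035). Pericyte and smooth muscle markers summed to 6.85, 6.83, 10.5 and 8.08 CPM against 2.01 and 1.44 CPM. Of the 8, 6 were tested and 1, Myh11, was higher, at 5.64 ± 0.296 against 0.308 ± 0.0809 CPM (log2 fold change 4.19, SE 0.24, adjusted p = 9.9e-10). The pericyte marker Pdgfrb, named after its values were seen, did not exceed 0.677 CPM in any sample. Fibroblast markers summed to 18, 17.2, 92.0 and 22.9 CPM against 15.9 and 17.5 CPM, with GapmeR sample 3 the highest, and none of the 6 was called. Pdgfra, which had the highest mean CPM over all 6 samples, stood at 10.9 ± 1.33 and 10.5 ± 0.204 CPM. Col1a1, named after its values were seen, stood at 2.21, 3.24, 38.0 and 4.58 CPM in the GapmeR samples, against 1.68 and 2.82 CPM. Epithelial markers summed to between 1.18 and 1.45 CPM in the GapmeR samples and to 0.475 and 0.783 CPM in the controls, and 2 of the 4 tested were higher. These were Cldn4, with 11, 11, 14 and 12 counts against 2 and 2 (adjusted p = 0.0058), and Krt8, with 5, 10, 5 and 9 counts against 1 and 2 (adjusted p = 0.0424), both named after their values were seen. Krt8 was not called by the Wald test of DESeq2 (adjusted p = 0.139). Neither gene reached 5 counts in a control, so both were tested only because of their GapmeR counts. No conclusion is drawn from these calls. Krt18, the most abundant of them, was not called (0.54, adjusted p = 0.250), and Epcam, named after its values were seen, had no counts in 5 of the 6 samples.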

How the data were processed

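The authors deposited raw read counts per Ensembl gene, neither normalized nor filtered. They depleted ribosomal RNA, sequenced 2 × 150 paired reads, ran bcbio-nextgen and aligned to mm10. The submitters' processing notes name Trimmomatic 0.36, STAR 2.5.2b and Subread 1.5.2, without roles. The Ensembl release is not given in the sources used here. Samples were grouped by title, and 1 further column of per-sample counts matched no sample and was not used. The study's methods give 4 samples in each group, of which 4 GapmeR and 2 control samples were analysed here.

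Counts were tested with edgeR 4.0.16 in R 4.3.3 (TMM, robust quasi-likelihood fit, group as the only term) on genes that reached 5 counts in 2 or more samples. SDs are between samples. Alternatives were DESeq2 1.42.0, limma-voom (limma 3.58.1), other scalings, filters and thresholds, the replicate block and each sample left out. Between samples of a group, the chi-square of counts per degree of freedom ranged from 5.41 to 25.2, above sampling noise. Intervals and limits of 3 counts cover counting error only.

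The 10 genes and the lists were chosen with earlier results of these data known. Besides the 10, the genes named are Gm39822, Tead2, in each list up to 4 called genes with the largest change and the gene with the highest mean CPM over all samples, and the gene with the highest mean CPM of each marker list. Others are marked in the text as named after their values were seen. Exonic lengths and overlaps come from GENCODE M39 (GRCm39), joined by Ensembl identifier, and mm10 positions and promoters from RefSeq GRCm38.p6. Figures used Python 3.11.15 and matplotlib 3.10.9. Protein sequences were not analysed here.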

Additional observations from a re-analysis of the deposited data

Results flagged for a closer look

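Taok2 in GapmeR sample 3 stood at 297.473 CPM, far from the other 3 GapmeR samples for their range. Cdh5 in GapmeR sample 2 stood at 1471.62 CPM, likewise far below the other 3. These are 2 of 44 named genes whose 4 GapmeR values were checked with Dixon's criterion, which chance alone exceeds in about 1 of 20 groups.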

How the results depend on the processing

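Wwtr1, Tead4, Lats2 and Ccn2 were called lower at an adjusted p under 0.05 in all 14 alternative fits, with log2 fold changes of -0.64 to -0.47, -0.56 to -0.34, -0.53 to -0.35 and -0.54 to -0.35. Over the 10 genes, 127 of the values under an alternative kept their direction and side of the threshold, 5 lost the threshold (all Tead1), 2 passed it (Yap1 and Tead3) and 1 reversed (Lats1). Without 1 sample at a time, 5232 to 8719 genes were called, 3302 to 4800 higher and 1930 to 3949 lower. Of the 10 genes, 4 to 6 were then called, 0 to 1 of them higher. With 1.5-fold also required, 4628 genes were called, 1390 of them lower, and Wwtr1 alone of the 10 genes (1, lower), so Tead1, Tead4, Lats2 and Ccn2 dropped out. With unadjusted p and 1.5-fold, 5110 were called, 1565 of them lower, and 2 of the 10 genes, 1 higher (Tead3) and 1 lower (Wwtr1). Tead3 was also the gene called higher without GapmeR sample 1. It passed the filter on low counts only through GapmeR samples 2 and 4, so no conclusion is drawn from either call. Library size alone gave 2135 lower calls, called 1 of the 10 genes higher (Yap1), and reversed Lats1 (0.054), Tead2 (0.050), Ppp2ca (0.11), Ywhae (0.10) and Myh9 (0.027). A minimum of 10 counts in every sample reversed Ppp2ca (0.0045) and Ywhae (0.0039), and Ppp2ca also reversed without GapmeR samples 3 and 4 (0.11). The causes were not tested. Without 1 sample, Ppp2ca ranged from -0.13 to 0.030 and Ywhae from -0.076 to 0.030.

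The replicate block rests on 4 samples, because the controls carry only the numbers 1 and 2. Same-numbered samples deviated with correlations of -0.113 and 0.176. With 2 controls the deviations of one mirror those of the other, so these correlations are not independent and cannot decide whether samples were paired. Pairing by labels other than the title numbers was not examined. The block called 7812 of 17524 genes and 4 of the 10, without Tead1 (-0.22, adjusted p = 0.0546). Stk4 (-0.24, adjusted p = 0.0523), Ywhaq (-0.16, adjusted p = 0.213) and Csnk1d (-0.21, adjusted p = 0.0980) also lost their calls, Lyz2 was called (0.24, adjusted p = 0.0232), and Ppp2ca reversed under it (0.11). Tead3 and Ankrd1 rest on few counts, and no control arm has more than 2 samples.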
